A study of Danio rerio with 24 samples.

Results

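The cytosolic ribosomal protein genes are the rpl and rps genes, whose products build the large and the small subunit of the ribosome in the cytoplasm. They were found by name: every array target that carried the RefSeq transcript of a zebrafish gene whose symbol starts with rpl or rps and a digit or p, or is rpsa, was taken, except the kinase genes rps6k and the binding protein gene rps19bp. This gave 84 targets of 83 genes out of 89208 targets on the array, with 48 large subunit genes and 35 small subunit genes. The gene rps24 has 2 targets, 1 for each of 2 transcripts, so that the small subunit has 36 targets. A further gene of this name pattern, rps11b, had no target in the files used here. All 84 targets passed the filter on dim probes, as did 73379 of all targets.

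The RNA came from tissue labelled as ovary of adult female zebrafish of the wild-type AB strain, aged 5 to 6 months post fertilization by the labels. As embryos they had been kept from 1 to 72 hours post fertilization in water without the herbicide atrazine (0 ppb) or with 0.3, 3 or 30 ppb of it, and were then raised without further exposure. Each treatment has 6 arrays, and 20 of the 24 arrays were used (replicates 2 to 6, n = 5 per treatment). By the study's methods a replicate is a group of fish started on its own day, and in the files each replicate number is also 1 slide, so the numbers pair the arrays. Each treatment always sat at the same position of its slide, so treatment and position cannot be told apart.

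A ribosome is made of ribosomal RNA and close to one copy of each ribosomal protein, and cells keep the production of these proteins in balance. Their mRNAs are among the most abundant in growing cells and carry a pyrimidine tract at their start through which their translation is controlled together. In the fish ovary the growing oocyte fills with ribosomes that the embryo uses before its own genome becomes active. Several zebrafish ribosomal protein genes have a second copy or a close relative with its own symbol.

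All levels below are log2 spot intensities relative to the 75th percentile of their array, averaged over the probes of a target. A level of 0 is as bright as that percentile, and differences are log2 differences between an exposed array and the 0 ppb array with the same replicate number. The 75th percentile of raw intensity lay between 417 and 2245 over the 20 arrays, and 40.6% to 87.9% of probes were well above background, with no saturated spot. The lowest share belonged to replicate 6 at 3 ppb, on which 10.4% of spots were marked as outliers. Replicate 1 was left out, because its spots did not correlate with those of other slides in place (r from -0.0016 to 0.0044) and did so after its grid was moved by 1 column, and on 2 of its 4 arrays also by 2 rows (r from 0.483 to 0.825).

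Of the 5 arrays labelled 0.3 ppb, those of replicates 3, 5 and 6 did not carry the markers of an ovary. All 13 oocyte marker targets were lower than at 0 ppb by the 1.5-fold threshold on each of the 3 arrays, with a summed signal (log2) of 0.29 to 0.75, against 8.86 to 9.46 on the other 17 arrays. All 14 brain marker targets were higher on each, with a summed signal of 7.56 to 7.95, against 0.02 to 1.22 on the other 17. The blood markers were also higher on these 3 arrays, by a median of 3.57 to 4.90, against -0.94 to 2.25 on the other 17, and those of muscle by 0.94 to 4.09, against -0.38 to 1.05. These 3 arrays were singled out by their measured values, so their differences are given as a description and without a test. In such bulk RNA, fewer cells of a type and less RNA per cell cannot be told apart.

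In ovaries without atrazine the ribosomal protein targets were bright on every array. Their level at 0 ppb had a median of 6.18, with an interquartile range of 5.72 to 6.68, while the median of all targets was -3.66. On all 5 arrays, 81 of the 84 targets were above the 75th percentile, against 15.6% of all targets. A mean level of at least 4 was reached by 77 of the 84, against 2.77% of all targets. Brightness depends on the probe as well as on the RNA, so the targets are not ranked among themselves. The 3 targets that were not above the percentile were rpl31, with a mean of -2.50 ± 0.56, rps8b, with -1.73 ± 0.31, and the rps24 transcript NM_201216, with -2.98 ± 0.84 (SD, n = 5 each).

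The probes of rpl31, a large subunit protein gene, differed widely in level. One of its 5 probes had a level of 6.07 at 0 ppb, and the other 4 had levels of -3.82 to -5.33. The other rps24 transcript, NM_001012316, had a mean of 6.97 ± 0.22 (SD, n = 5). Where probes or transcripts of 1 gene differed this much, the gene's level is known only through the probe.

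The levels varied little between the 5 ovaries at 0 ppb. The SD of a target over these arrays had a median of 0.16, against 0.64 for all targets and 0.19 for the 2034 targets with a mean level of at least 4. For 81 of the 84 targets it was under 0.3. The median level of the 84 targets was 5.92, 6.26, 6.29, 6.23 and 6.25 in replicates 2 to 6 at 0 ppb. Replicate 2 was the lowest and the other 4 lay within 0.06 of each other.

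At 3 ppb the ribosomal protein targets stayed within a narrow band, and none was called. By limma with the replicate number as a block and Benjamini-Hochberg adjustment, 0 of the 84 passed an adjusted p of 0.05 with a 1.5-fold change, and 0 of all targets did (percent called 0). At an unadjusted p of 0.05 with the same fold change it was again 0 of the 84, against 5.55% of all targets. The lowest unadjusted p among them was 0.0728, and the median SE of a log2 fold change was 0.165. The median paired difference of the 84 targets was 0.14, against 0.07 for all targets, with an interquartile range 0.089 wide, against 0.449 for all targets and 0.19 for the bright ones. Without replicate 2 the median of the 84 targets was 0.09, against 0.10 for all targets.

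The small difference at 3 ppb had no single direction across the pairs. The median of the 84 targets was 0.35 higher in replicate 2, 0.16 in replicate 3, 0.03 in replicate 5 and 0.23 in replicate 6, and -0.07 in replicate 4. Each 0 ppb array serves the pairs of all doses, and that of replicate 2 had the lowest median level, 5.92. The 3 ppb array of replicate 2 was at 6.34, among the others of 3 ppb, which ran from 6.17 to 6.51. In each pair the 84 targets moved together, with interquartile ranges 0.12 to 0.18 wide, so they count as one movement of the group rather than as 84 separate ones. Under quantile normalization the medians were 0.23, 0.05, 0.04, -0.03 and 0.12, and replicates 4 and 5 changed sign.

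At 3 ppb, 12 of the 84 targets were higher in all 5 pairs, which is 14.3% against 5.76% of all targets, and 0 were lower in all 5, against 3.63%. The 5 with the highest mean difference were rplp1, rpl26, rps10, rpl8 and rpl24. rplp1 encodes an acidic protein of the stalk that binds elongation factors. It had levels of 6.42, 6.33, 5.97, 6.15 and 6.35 at 3 ppb, against 5.68, 6.07, 5.93, 5.98 and 5.82 at 0 ppb in replicates 2 to 6. The groups overlapped, and the log2 fold change of 0.35 (SE 0.17) had an adjusted p of 0.671 by limma.

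rps10, a small subunit protein gene with 1 probe, had 5.46, 5.75, 5.53, 5.19 and 5.51 at 3 ppb, against 4.98, 5.35, 5.35, 5.14 and 5.18 at 0 ppb. The log2 fold change of rps10 was 0.29 (SE 0.15, adjusted p 0.675 by limma), and 1 of the 3 ppb levels lay among those of 0 ppb. rpl8, whose protein lies near the catalytic centre of the large subunit, had 6.21, 6.49, 6.08, 6.07 and 6.32 at 3 ppb, against 5.80, 5.99, 5.99, 5.93 and 6.04 at 0 ppb. Here the groups did not overlap, but rpl8 was named for its high mean difference. The share of all targets without overlap was not counted, so nothing is drawn from this. Its log2 fold change of 0.28 (SE 0.16) did not pass, with an adjusted p of 0.693 by limma. rpl26 and rpl24, both large subunit protein genes, had log2 fold changes of 0.31 (SE 0.21) and 0.27 (SE 0.17) with overlapping groups.

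At 30 ppb no ribosomal protein target was called either. By limma 0 of the 84 passed the adjusted threshold, as did 0 of all targets (percent called 0), and 0 of the 84 passed at an unadjusted p, against 3.54% of all targets. The median paired difference was 0.12, against 0.09 for all targets and 0.11 for the bright ones. The interquartile range was 0.094 wide, against 0.36 for all targets and 0.154 for the bright ones. Without replicate 2 the median was 0.02, against 0.07 for all targets. The pairs went both ways. The median of the 84 targets was 0.51, 0.39 and 0.15 in replicates 2, 3 and 4, and -0.12 and -0.30 in replicates 5 and 6. The pair of replicate 2 rests on the same low 0 ppb array as at 3 ppb.

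At 30 ppb the direction of a pair went with its scan session. Replicates 5 and 6 were scanned together, replicates 3 and 4 in another session and replicate 2 in a further one. All 84 targets were higher in replicates 2 and 3, against 61.8% and 67.4% of all targets. In replicates 5 and 6, 8 and 2 of the 84 were higher, against 46.0% and 50.2% of all targets. At 3 ppb the signs did not follow the sessions in this way. The medians there were 0.16 and -0.07 in replicates 3 and 4, and 0.03 and 0.23 in replicates 5 and 6. The part of the scan session was not tested. Under quantile normalization the medians at 30 ppb kept their order of signs and were smaller, from -0.04 to 0.22. Of the 84 targets, only the rps24 transcript NM_201216 was higher in all 5, which is 1 target against 6.96% of all targets, and 0 were lower in all 5, against 2.04%. It had levels of -3.26, -3.50, -3.08, -1.53 and -1.84 at 30 ppb, against -3.67, -3.52, -3.41, -1.67 and -2.61 at 0 ppb. The groups overlapped, limma gave it a log2 fold change of 0.34 (SE 0.16, adjusted p 0.942 by limma), and its single probe was dim.

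**Figure D1:**
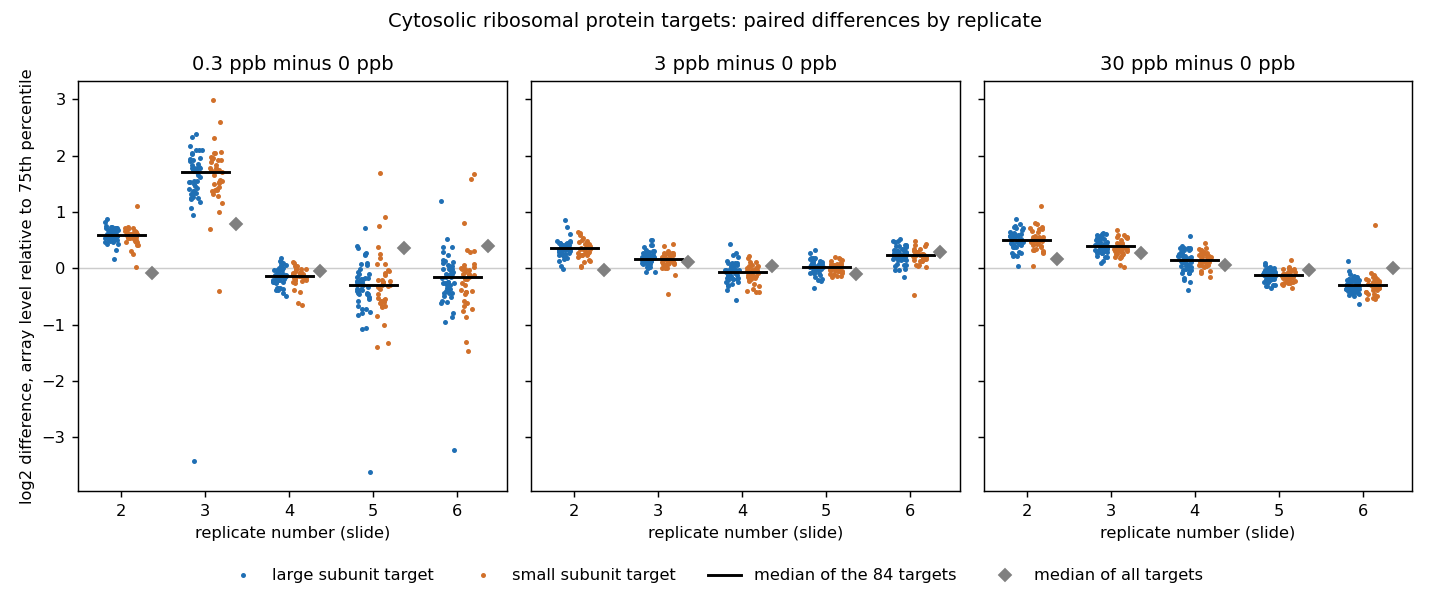
Log2 difference of each of the 84 ribosomal protein targets between an exposed array and the 0 ppb array of the same replicate number, for 0.3, 3 and 30 ppb, with replicate numbers 2 to 6 on the horizontal axis. Blue and orange points are large and small subunit targets, black lines the median of the 84 targets and grey diamonds the median of all targets. At 3 and 30 ppb the points form narrow bands whose medians lie between -0.30 and 0.51, and at 0.3 ppb the bands of replicates 3, 5 and 6 are wider.

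The large and the small subunit had medians close to that of all 84 targets at 3 and 30 ppb, while single genes named by role spread more widely. The median paired difference at 3 ppb was 0.15 for the large subunit and 0.13 for the small subunit, and at 30 ppb it was 0.12 for each. rplp0, the base of the stalk, had log2 fold changes of 0.19 (SE 0.17) at 3 ppb and 0.21 (SE 0.17) at 30 ppb. The other stalk genes rplp2 and rplp2b had 0.15 and 0.24 at 3 ppb and 0.12 and 0.22 at 30 ppb. rps27a, whose product is made as a fusion with ubiquitin, had 0.05 at 3 ppb and 0.07 at 30 ppb. rpsa, a small subunit protein gene also known as the laminin receptor gene, had 0.23 and 0.19. rpl11, which joins rpl5 and the 5S RNA in a particle that also binds the p53 regulator Mdm2, had 0.09 and 0.05. None of these had an adjusted p below 0.05.

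In the 0.3 ppb group as labelled, 0 of the 84 targets passed the adjusted threshold by limma, as did 0 of all targets (percent called 0). At an unadjusted p with the same fold change there were 2 of the 84, against 26.4% of all targets. These were rpl7l1, with a log2 fold change of -2.03 (SE 0.74, adjusted p 0.189), and rps8b, with 1.37 (SE 0.50, adjusted p 0.189). When all 4 treatments shared 1 fit, the adjusted p by limma was 0.0375 for rpl7l1 and 0.0402 for rps8b, and the same 2 targets were called, against 28% of all targets. That fit takes 1 spread for all treatments, although in the separate fits the median SE of the 84 targets was 0.405 at 0.3 ppb and 0.165 at 3 and 30 ppb. These adjusted p therefore rest in part on the smaller spread of the other treatments. The test of the study's methods (analysis of variance with Tukey's test), run here without adjustment over targets, called the same 2, against 15.7% of all targets. Both differences were small on the arrays of replicates 2 and 4, with means of 0.06 for rpl7l1 and 0.28 for rps8b, and large on those of replicates 3, 5 and 6.

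On the 3 arrays that lacked ovary markers, replicates 3, 5 and 6 of 0.3 ppb, the differences of the ribosomal protein targets from 0 ppb spread less than those of all targets. The mean difference over the 3 pairs had an interquartile range 0.457 wide for the 84 targets. It was 2.65 wide for all targets and 4.94 for the bright ones. The mitochondrial ribosomal protein genes also had a narrow range, 0.784 wide, and it was 1.39 wide for ribosome biogenesis and for translation initiation factors. The bright ones were chosen by their level at 0 ppb, which enters the difference, and had a median difference of -1.58. They are therefore no neutral reference on these arrays. Past the 1.5-fold threshold in the same direction in all 3 pairs were 5 of the 84 targets (5.95%), against 55.4% of all targets. Of these, 4 were higher, against 35.9%, and 1 was lower, against 19.5%.

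The common level of the group on these 3 arrays depended on replicate 3 and on the scaling. The median difference of the 84 targets was 1.71 in replicate 3, -0.30 in replicate 5 and -0.15 in replicate 6. The mean over these pairs had a median of 0.43, and without replicate 3 it was -0.23. On the other 0.3 ppb arrays, the median difference of the 84 targets was 0.59 in replicate 2 and -0.14 in replicate 4. Differences of both signs were thus not particular to the 3 arrays. The array of replicate 3 was dim, with a 75th percentile of 417 in raw intensity, and before scaling its median difference was -0.14, against -1.35 in replicate 5 and -1.01 in replicate 6. Under quantile normalization the medians in the 3 pairs were 1.02, 0.41 and 0.62, and the overall median was 0.69. The median of all targets was then -0.08, against 0.50 with the percentile scaling. Then 22 of the 84 targets were past the threshold as higher, against 27.8% of all targets, and 1 as lower, against 25.6%. With normexp background correction before it, 25 of the 84 were higher, against 24.1%, so the order of the 2 shares depended on the processing. The members' differences are therefore given below relative to the median of the 84 targets on the same pair.

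Measured this way, 63 of the 84 targets stayed within 1.5-fold of the group's median in all 3 pairs, against 2.19% of all targets. Of all targets, 6.21% stayed within that fold of their own median. This share depended on the processing. Under quantile normalization it was 9.04%, with 62 of the 84 targets within the fold of the group's median. With normexp background correction before it, the share was 28.3%, with 61 of the 84. With the percentile scaling, the targets past that fold in all 3 were rps8b and rps27.2 on the high side (2 of 84, against 23.7% of all targets measured from the same median). On the low side there were 4 of 84, against 18.9%, among them rpl7l1, rps27l and rpl12. rpl12 was named after its values were seen. The large and the small subunit had medians of 0.43 and 0.42 before this centring.

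**Figure D2:**
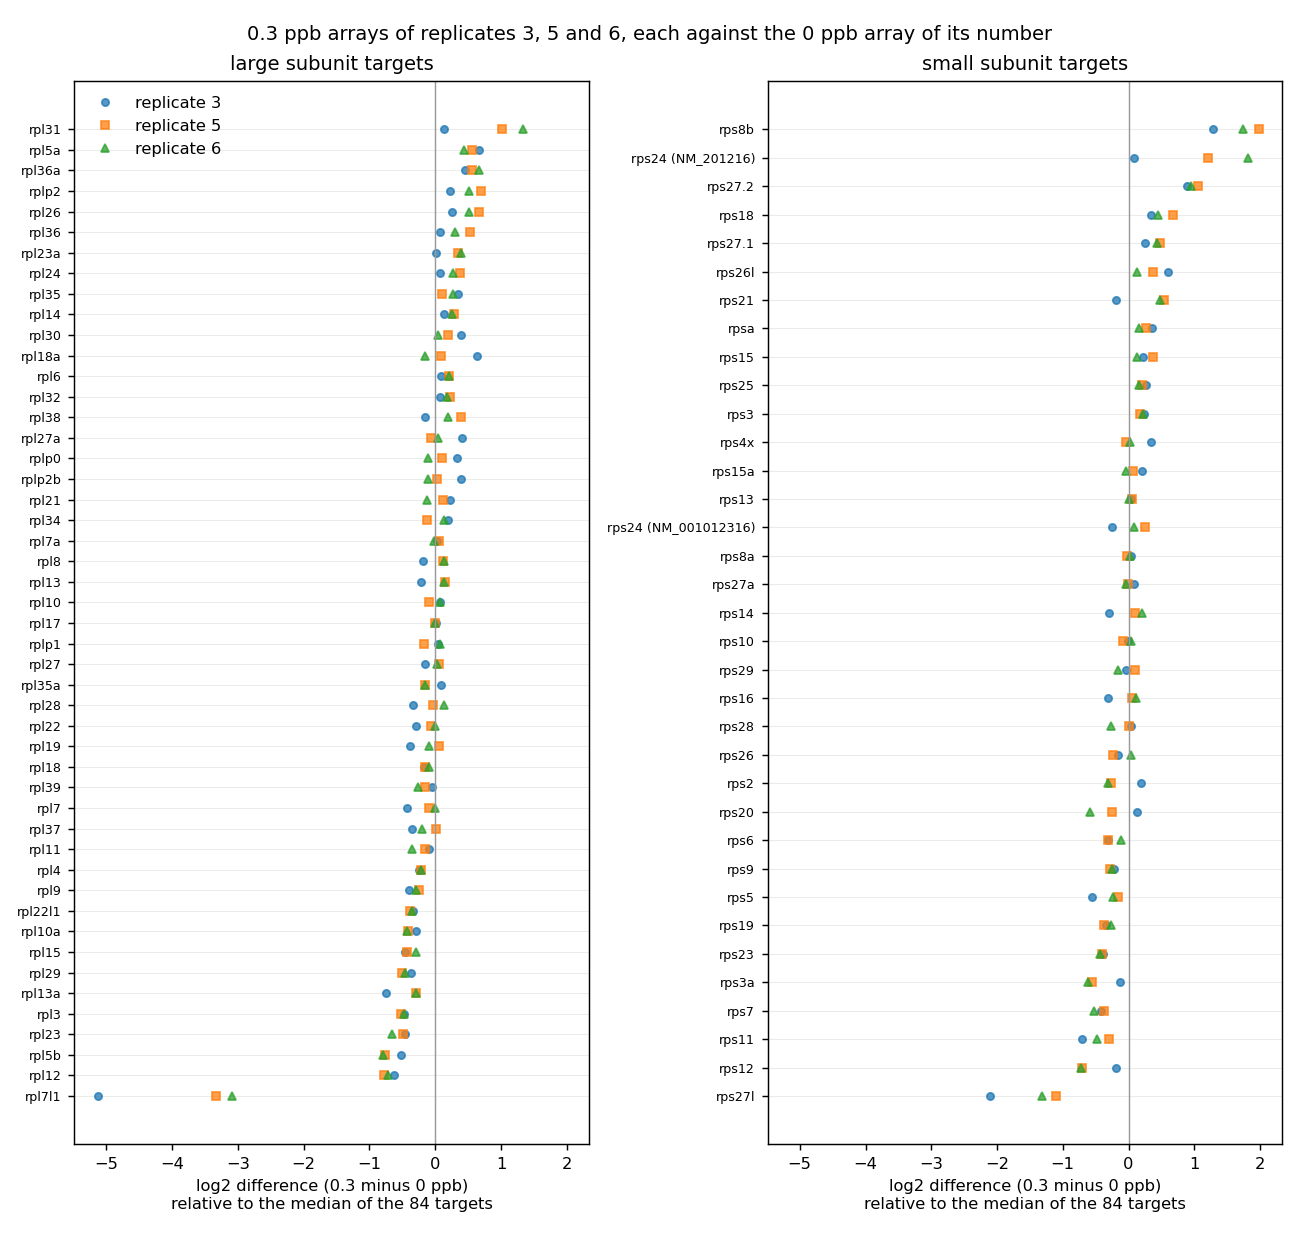
Log2 difference between the 0.3 ppb and the 0 ppb array of replicates 3, 5 and 6, relative to the median of the 84 targets in that pair, for the large subunit targets (left) and the small subunit targets (right), sorted by their mean, with 1 target not shown. Circles, squares and triangles are replicates 3, 5 and 6. Most targets lie near 0, rpl7l1 lies between -5.13 and -3.08, and rps8b between 1.29 and 1.99.

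The lowest target was rpl7l1, named for its likeness to rpl7 and related to a yeast protein that acts in the assembly of the large subunit. Its levels at 0.3 ppb were 1.63, 1.47 and 1.77 in replicates 3, 5 and 6, against 5.05, 5.10 and 5.00 at 0 ppb. In replicates 2 and 4 they were 5.50 and 5.03 at 0.3 ppb, against 5.17 and 5.24 at 0 ppb. The 3 arrays were thus far below all others, and the remaining pair of 0.3 ppb arrays lay near the 0 ppb levels. All 3 of its probes were lower relative to the group's median, by -3.80 to -3.90. rpl7 itself, the ribosomal protein gene with 8 probes, had 8.27, 6.45 and 6.70 on the 3 arrays, against 7.00, 6.85 and 6.84 at 0 ppb.

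The gap between a gene's difference and that of its relative does not depend on the percentile subtracted from the array. For rpl7l1 minus rpl7 it was -4.70, -3.23 and -3.08 in replicates 3, 5 and 6 and -0.20 and 0.05 in replicates 2 and 4. At 3 ppb the 5 gaps lay between -0.49 and 0.08, and at 30 ppb between -0.44 and 0.05. The large gap was thus present on the 3 arrays and on none of the other exposed ones.

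The rps27 genes, which encode a small zinc-binding protein of the small subunit, split in the same way. rps27l, whose human counterpart is induced by p53, had 3.14, 2.04 and 2.22 on the 0.3 ppb arrays of replicates 3, 5 and 6, against 3.55, 3.44 and 3.68 at 0 ppb. rps27.2 had 7.08, 5.72 and 5.46 on them, against 4.47, 4.96 and 4.65 at 0 ppb. rps27.1 had 8.04, 6.14 and 6.40, against 6.08, 5.95 and 6.10 at 0 ppb. With the percentile scaling, rps27l was lower and rps27.2 higher in all 3 pairs. Under quantile normalization rps27l was at -0.94 relative to the group's median in replicate 3, where that median was itself 1.02. Its lower level in that pair thus depended on the scaling.

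Among these genes the gap of rps27l minus rps27.2 was -3.01, -2.15 and -2.27 in replicates 3, 5 and 6, and -0.11 and 0.09 in replicates 2 and 4. For rps27l minus rps27.1 it was -2.37, -1.58 and -1.76 on the 3 arrays, and for rps27.2 minus rps27.1 it was 0.64, 0.57 and 0.52. At 3 and 30 ppb all 3 gaps had means between -0.17 and 0.05. Both probes of rps27l were lower than the group's median, by -2.23 and -0.79, so the size of its difference depended on the probe. The probes of rps27.2 were higher by 0.92 and 1.01.

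rps8b and rps8a are copies of the gene of a small subunit protein, and rps8b had a single, dim probe that was well above background on 19 of 20 arrays. Its levels were 1.25, 0.19 and 0.12 on the 0.3 ppb arrays of replicates 3, 5 and 6, against -1.75, -1.50 and -1.47 at 0 ppb. rps8a had 8.75, 6.59 and 6.85 on them, against 7.00, 6.90 and 6.97 at 0 ppb. With the percentile scaling, rps8b was higher in all 3 pairs, while rps8a was higher in 1 and lower in 2. The gap of rps8b minus rps8a was 1.25, 2.00 and 1.71 on the 3 arrays and 0.14 and -0.03 in replicates 2 and 4. At 3 ppb it ran from -0.74 to 0.30 and at 30 ppb from -0.36 to 0.55.

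The rpl5 copies, whose protein carries the 5S RNA into the large subunit, also moved apart. rpl5a had 6.36, 4.20 and 4.41 on the 0.3 ppb arrays of replicates 3, 5 and 6, against 3.98, 3.93 and 4.12 at 0 ppb. rpl5b had 6.71, 4.42 and 4.65, against 5.53, 5.48 and 5.60 at 0 ppb. With the percentile scaling, rpl5a was higher in all 3 pairs and rpl5b lower in 2 of them. The gap of rpl5a minus rpl5b was 1.19, 1.32 and 1.24, and 0.23 and -0.16 in replicates 2 and 4. On average over the 3 pairs, all 3 probes of rpl5a lay above the group's median, by 0.54 to 0.58, and all 14 probes of rpl5b below it. At 3 ppb the gap lay between -0.21 and 0.51 and at 30 ppb between -0.19 and 0.36. Under quantile normalization rpl5b was at 0.002, -0.84 and -0.90 relative to the group's median in replicates 3, 5 and 6, and rpl5a at 1.405, 0.47 and 0.16. With that scaling rpl5b was thus not below the median in replicate 3.

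The remaining pairs of like genes had smaller gaps on the 3 arrays. The mean gap was 0.49 ± 0.35 for rps26l minus rps26, -0.38 ± 0.47 for rplp2b minus rplp2 and -0.23 ± 0.16 for rpl22l1 minus rpl22 (SD over 3 pairs). The second of these had both signs, 0.17 in replicate 3 and -0.66 and -0.63 in replicates 5 and 6. The names rpl7a, rpl10a, rps3a and rps15a belong to proteins of their own and are not copies of rpl7, rpl10, rps3 and rps15.

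**Figure D3:**
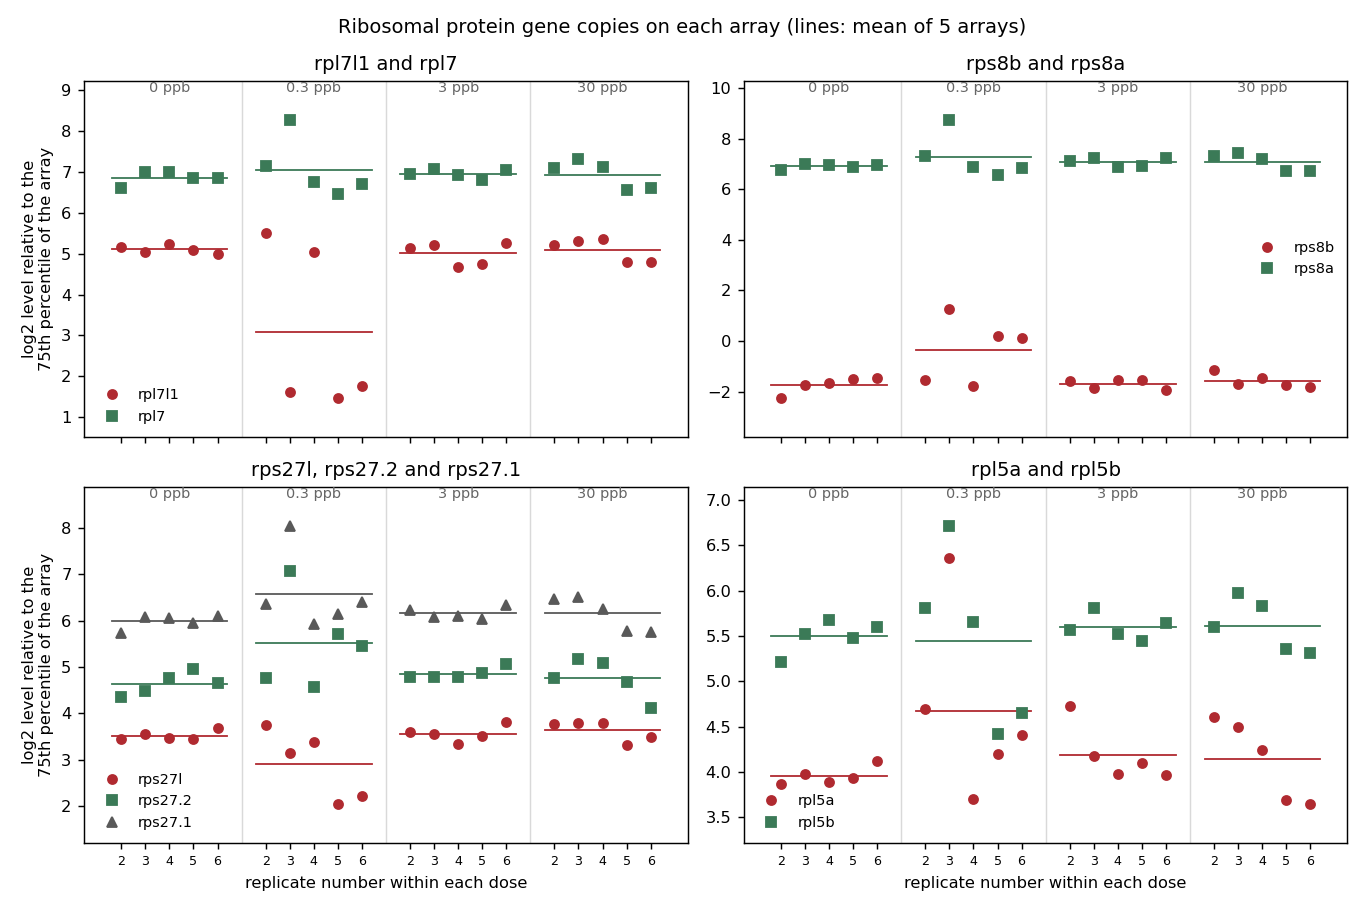
Log2 level relative to the array's 75th percentile of 4 families of like ribosomal protein genes on each of the 20 arrays, with replicates 2 to 6 along the horizontal axis within 0, 0.3, 3 and 30 ppb. Points are single arrays and horizontal lines the mean of 5 arrays. rpl7l1 lies at 1.63, 1.47 and 1.77 on the 0.3 ppb arrays of replicates 3, 5 and 6, and at 4.68 or above on the other 17.

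Of the single genes, rpl12, whose protein lies at the base of the stalk, was at -0.63, -0.78 and -0.72 relative to the group's median in replicates 3, 5 and 6. Under quantile normalization it was at -0.28, -0.79 and -0.71, and thus no longer past the fold in replicate 3. With the percentile scaling all 3 of its probes were below that median. rpl31 and the rps24 transcript NM_201216 were past the fold as higher before centring, with mean differences of 1.25 and 1.46. Relative to the group's median, the bright rpl31 probe, with a level of 6.07 at 0 ppb, was at 0.23. The other rpl31 probes, with levels of -3.82 to -5.33, were at 0.43 to 1.29, so the difference of rpl31 rests mainly on dim probes. The single probe of NM_201216 was also dim, and the other rps24 transcript was at 0.03.

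Of the stalk genes, rplp0 was at 0.33, 0.11 and -0.11 in replicates 3, 5 and 6, and rplp1 at 0.04, -0.17 and 0.07. rplp2 was above the group's median in each pair, at 0.22, 0.70 and 0.52, and past the fold in replicate 5, and rplp2b was at 0.39, 0.03 and -0.11. rps27a was at 0.08, -0.01 and -0.04, which made it one of the closest to the median. rpsa was at 0.36, 0.26 and 0.16, and rpl11 at -0.09, -0.16 and -0.36.

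Several other groups of genes for protein synthesis had lower levels on these 3 arrays. The ribosome biogenesis list holds mainly nucleolar processing factors and subunits of RNA polymerase I, with some of its transcription factors, and 37 of its 45 genes were measured. It had a median difference of -2.73, and 32 of its 37 targets were past the fold as lower in all 3 pairs, against 19.5% of all targets. As higher there was 1, against 35.9%, which was ubtf, a transcription factor of the ribosomal RNA genes. The list also holds nog1, a symbol that in zebrafish stands for noggin 1, and without it the median was -2.81, with 32 of 36 lower. Its lowest targets were rrp9, with -4.51, imp4, with -4.09, and polr1b, with -4.01. The first pair of genes acts in the processing of the ribosomal RNA precursor, and polr1b encodes a large subunit of RNA polymerase I. Under quantile normalization the list's median was -2.62, with 32 lower and 1 higher, against 25.6% and 27.8% of all targets. The difference of rpl7l1, -3.43, lay within the range of this list. It also lay within the ranges of the mitochondrial and initiation factor lists described next, so it does not tell these lists apart.

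The mitochondrial ribosomal protein genes, which serve the separate ribosome of the mitochondrion, had a median of -1.49 over 65 targets. Of the 65, 52 were lower, against 19.5% of all targets, and 0 higher, against 35.9%. mrps23, mrpl51 and mrpl21 were the lowest, with -3.58, -3.06 and -2.64. Translation initiation factors had a median of -0.9996 over 52 targets, with 26 lower and 3 higher, against the same 19.5% and 35.9%. Their lowest target was eif4e1b, a form of the cap-binding factor known from oocytes, with -9.05, followed by eif1b with -3.94 and eif1axa with -3.41. Under quantile normalization the medians were -1.24 and -0.54, with 43 and 19 targets lower, against 25.6% of all targets.

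The translation elongation factor list, taken by the start of the symbol, had a median of -0.02 over 18 targets. It includes the kinase gene eef2k and 3 methyltransferase genes, and without these 4 the median was 0.24 over 14 targets. Of the 14, 5 were higher, against 35.9% of all targets, and 2 lower, against 19.5%. The share that was higher was thus close to that of all targets. The copies of eEF1A, which brings the aminoacyl-tRNA to the ribosome, went opposite ways. eef1a2 differed by 5.95 and eef1a1b by 5.59, and eef1a1l3 by -9.75. eef1a1a was well above background on 3 of the 5 arrays at 0 ppb and is given no difference. The other genes whose mRNA starts with a pyrimidine tract had a median of -0.12 over 25 targets, and share several genes with the factor lists. Of the 25, 4 were higher and 5 lower, against the same 35.9% and 19.5%. The medians of this list and of the 18 elongation factor targets average unlike arrays. Measured from the median of the 0 ppb arrays, the pyrimidine tract list was at 1.03, -0.59 and -0.65 in replicates 3, 5 and 6. The 18 elongation factor targets were at 1.05, -0.69 and -0.56. Under quantile normalization the medians of the 2 whole lists were above 0, at 0.28 and 0.32.

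**Figure D4:**
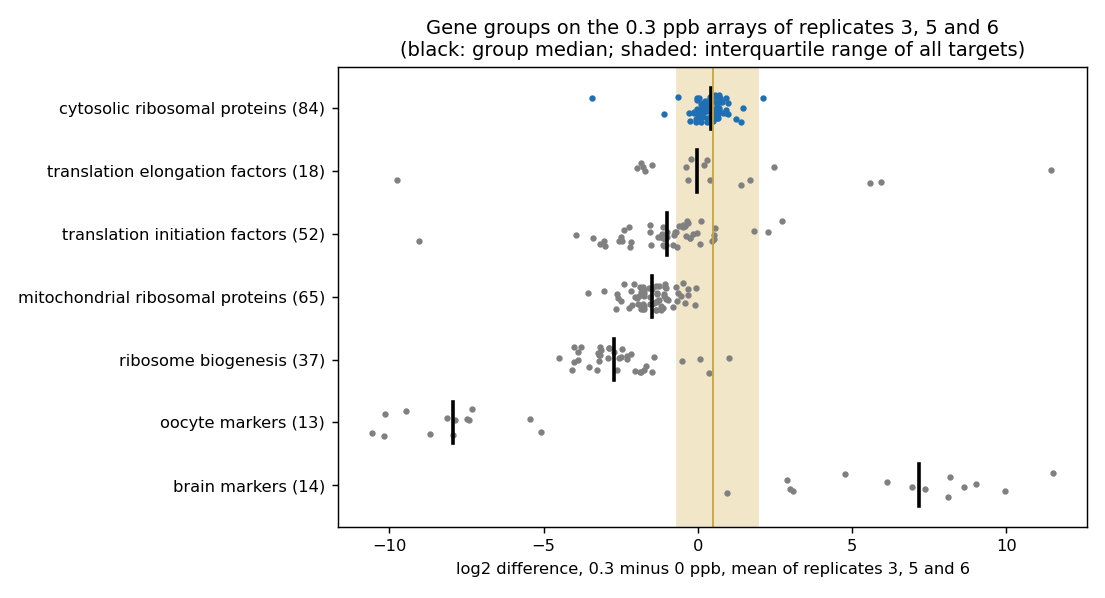
Log2 difference between the 0.3 ppb and the 0 ppb arrays, averaged over replicates 3, 5 and 6, for the ribosomal protein targets (blue) and for 6 other gene groups (grey), with the number of targets in brackets. Black bars are group medians, and the shaded band and its line are the interquartile range and the median of all targets. The ribosomal protein targets crowd around 0.43, while the ribosome biogenesis, mitochondrial and initiation factor groups have medians of -2.73, -1.49 and -0.9996.

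At 3 and 30 ppb these groups were also nearly level, and 0 of their targets passed the adjusted threshold by limma. The median differences at 3 ppb were 0.03 for ribosome biogenesis, 0.00 for mitochondrial ribosomal proteins, -0.01 for initiation factors, 0.17 for elongation factors and 0.13 for the other genes with a pyrimidine tract. At 30 ppb they were 0.10, 0.10, 0.08, 0.16 and 0.15. The interquartile ranges at 3 ppb, in the same order, were 0.111, 0.115, 0.161, 0.33 and 0.169 wide, against 0.089 for the ribosomal protein targets. At 30 ppb they were 0.146, 0.132, 0.178, 0.154 and 0.105 wide, against 0.094. A narrow band was thus not particular to the ribosomal protein targets. At an unadjusted p with the same fold change, 0 targets of these lists passed at 3 ppb, against 5.55% of all targets. At 30 ppb it was 1 of 37 in ribosome biogenesis, 1 of 18 elongation factors, 1 of 25 genes with a pyrimidine tract, 1 of 65 mitochondrial targets and 0 of 52 initiation factors, against 3.54%.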

How the data were processed

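Total RNA labelled as ovary was hybridized with a single dye to custom Agilent arrays, 1 array per sample. The authors extracted the images with Agilent Feature Extraction 11.5. The deposited spot intensity is background-subtracted and not normalized between arrays, and the deposited flags (0 or 1) mark spots that are outliers, saturated or well above background. The authors' later normalization was not used here, and the genome build of the probes is not given in the sources used here.

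Intensities (floor 1) were put on the log2 scale and the 75th percentile of the array was subtracted. Outlier spots were omitted. A probe was used if it was well above background on 5 or more of 20 arrays, and a target if it had 2 values per group. Each probe's mean over the arrays was taken off before averaging the probes of a target, and the mean level was then added back. Target names come from RefSeq transcripts in the arrays' annotation, matched to symbols in the RefSeq gene list of assembly GRCz12tu. limma 3.58.1 (R 4.3.3, with data.table in version 1.17.8) was fitted to all targets with the replicate number as a block, in 1 fit for 0, 3 and 30 ppb and another for 0 and 0.3 ppb, with Benjamini-Hochberg adjustment over all targets. Thresholds were an adjusted p of 0.05 and a log2 fold change of 0.585, which is 1.5-fold. Figures were drawn with matplotlib 3.10.9 in Python 3.11.15, after tabulation with numpy 2.4.6 and pandas 2.3.3. The procedure was tested on simulated data.

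By the study's methods, a replicate is a group begun on its own day, and each number is 1 slide. Deviations from the group means correlated by over 0.1 in 26 of 30 pairs of arrays with the same number (median r 0.34). With different numbers they did so in 40 of 120 pairs (median r -0.20). Deviations within a group sum to 0, so positive correlations for the same number push those for different numbers below 0. These pairs include the 0.3 ppb arrays that lacked ovary markers. The number of arrays limits the precision.

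Named genes were the stalk genes, rps27a, rpsa, rpl5 and rpl11, all pairs of like genes, and the 5 highest and 5 lowest of the targets with all differences in 1 direction. Lists for ribosome biogenesis, translation factors, mitochondrial ribosomal proteins, other genes with a pyrimidine tract and markers of oocyte, follicle somatic cells, brain, liver, blood, muscle, leukocytes and testis were used. The members and lists were chosen with earlier results of these data known. Alternatives were another normalization, background correction, filter or average of probes, replicate 1 included, each replicate left out, no block, all groups in 1 fit, the methods' test without adjustment and an unadjusted p. The values of 1 target are not reported here.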

Additional observations from a re-analysis of the deposited data

Results flagged for a closer look

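In 120 groups of 5 arrays, the gap of the highest or lowest array to the nearest other, as a share of the whole range, was compared with Dixon's critical value of 0.71, which chance passes in about 1 group of 20. That rate holds for independent groups of like arrays, while these targets move together and the 0.3 ppb arrays are unlike. The critical value was passed in 10 groups, a number that cannot be compared with that rate. Of these, 7 were at 0.3 ppb, where replicate 3 was the highest: rps26l (0.891, at 7.17, with the others up to 5.09), rpl24 (0.848, at 8.23, others up to 6.64), rplp2 (0.811, at 8.51, others up to 6.77), rpl26 (0.804, at 8.88, others up to 7.33), rpsa (0.789, at 8.18, others up to 6.50), rps27.1 (0.775, at 8.04, others up to 6.40) and rplp2b (0.71, at 8.72, others up to 6.92). This is the dim array on which the median of the 84 targets was also high. The liver markers were highest on it too, by a median of 5.99 from 0 ppb, against -6.22 to 3.21 on the other 17 arrays. A link between the liver markers and the ribosomal protein targets was not tested.

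At 0 ppb, replicate 2 was the lowest for the median level of the 84 targets (0.834, at 5.92, with the others from 6.23 to 6.29) and for rps26l (0.726, at 4.37, others from 4.86 to 5.04). At 3 ppb, replicate 2 was the highest for rpl5a (0.72, at 4.73, others from 3.96 to 4.18).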

How the results depend on the processing

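The numbers pair the arrays. Without the replicate block the counts of called ribosomal protein targets were 0 at 0.3, 3 and 30 ppb, as with the block. With the block 0 of all targets were called too, so these counts cannot show whether the pairing mattered. Of the alternatives, 3 moved a count, all at 0.3 ppb. All 4 groups in 1 fit gave 2 targets, against 28% of all targets. The methods' test, run without adjustment, gave 2, against 15.7%, and an unadjusted p gave 2, against 26.4%. At 3 and 30 ppb the count was 0 under all 17 alternatives run. The share of all targets called ran from 0% to 5.55% at 3 ppb and from 0% to 3.54% at 30 ppb.

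When replicates were dropped one at a time, the counts stayed at 0 at each dose. With no replicate dropped 0 of all targets were called, so these counts say nothing about the ribosomal protein targets in particular. The median difference ran from -0.23 to 0.75 on the 0.3 ppb arrays of replicates 3, 5 and 6, where leaving out replicate 3 turned its sign, from 0.09 to 0.20 at 3 ppb, where replicates 2 and 4 decided the ends, and from 0.02 to 0.23 at 30 ppb, where it was 0.02 without replicate 2, 0.06 without replicate 3, 0.18 without replicate 5 and 0.23 without replicate 6. The cause was not tested.

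Including replicate 1 gave 0.36, 0.05 and 0.06 for these medians, and quantile normalization 0.69, 0.08 and 0.08. Quantile normalization, with and without normexp, left 3 targets past the fold on the low side of the group's median in place of 4, without rpl12, and 2 on the high side. Of all targets measured from the same median, 40.5% were then low and 19.2% high, against 18.9% and 23.7% with the percentile scaling. With normexp the shares were 39.5% and 15.1%. Relative to the median of the 84 targets, rps27.2 was at 1.14, rpl5a at 0.68 and rpl12 at -0.59 under quantile normalization, against 0.97, 0.56 and -0.71. The strict filter asks for a signal well above background on each of 20 arrays. It left out rps8b and the rps24 transcript NM_201216, whose single probes reached this on 19 arrays, so neither could be fitted there. The dim probes of rpl31 were left out by it too. Averaging the probes left, without removing their means, was added after the data were seen and gave medians of 0.41, 0.13 and 0.13. Leaving out saturated spots changed nothing, since there were none.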

Other observations

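The marker lists not described above had these medians. In the 0.3 ppb group's replicates 3, 5 and 6, the follicle somatic list differed by -1.43 from 0 ppb (5 of 8 targets lower in all 3 pairs), the leukocyte list by 2.02 (3 of 5 higher), the liver list by -0.84 (1 of 8 higher) and the testis list by -1.27 (2 of 7 lower and 1 higher). Of all targets, 35.9% were higher and 19.5% lower in all 3 pairs by the same threshold. The liver value averages unlike arrays and does not describe each of them. The median difference of the liver list from 0 ppb was 5.99 in replicate 3, -1.31 in replicate 5 and -4.76 in replicate 6. On the other 17 arrays it ran from -6.22 to 3.21. At 3 ppb the leukocyte and blood lists had medians of 0.97 and 0.87, while the oocyte list had -0.03 and the ribosomal protein targets 0.14. At 30 ppb they had 0.54, 0.11, 0.03 and 0.12 in the same order. By limma 0 targets of these lists passed the adjusted threshold at 3 or 30 ppb, and at an unadjusted p with the fold change 3 of 5 leukocyte, 2 of 7 blood and 2 of 8 follicle somatic targets were higher at 3 ppb, against 5.55% of all targets in either direction. At 30 ppb it was 2 of 8 follicle somatic and 1 of 7 testis targets, against 3.54%. The liver list had -1.59 at 3 ppb and -1.19 at 30 ppb, with 0 targets passing at an unadjusted p.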
